A study of Mus musculus with 82 samples.

Results

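Avp-rich, Vip-poor hexagons from the 2 ends of the mouse suprachiasmatic nucleus (SCN, the brain's circadian clock centre) made up 19 of 82 laser-captured pieces of tissue, and are compared here along the anterior-posterior axis. They were chosen by their measured Avp and Vip: a hexagon needed 200 or more CPM of Avp (CPM is the count scaled to a library of 1000000 counts) and under 100 CPM of Vip, and had to lie in a section at coordinate 95 or 143 (the low side) or at 335, 383 or 431 (the high side). The rule took 14 of the 18 low-side hexagons and 5 of the 20 high-side hexagons. All came from C57BL/6 mice aged 8 weeks, with no treatment or genetic change in the labels, and were cut from sections stained with cresyl violet. The labels name no animal, sex or collection time and do not say which end of the anterior-posterior axis is rostral, so the sides are called low and high here.

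The letter that opens each hexagon's description was read as a library set, which is an inference. The low side held 5 members of set A (section 95) and 9 of set B (section 143), and the high side 2 of set G (section 335) and 3 of set H (sections 383 and 431). Set F, which lies at 287 and 335, gave no member on either side. No set lies on both sides, so library set and anterior-posterior side cannot be told apart in any comparison below. Hexagons may share an animal, and p-values over hexagons are then too small.

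Avp encodes the precursor of arginine vasopressin, the peptide of the SCN shell neurons, and Vip the precursor of vasoactive intestinal peptide, the peptide of the core neurons that receive retinal input. Shell neurons also make other peptides and signal through GABA, and the transcriptional clock drives Avp itself: CLOCK and BMAL1 act at an E-box, with the letters CACGTG, in its promoter. Vip transcription responds to cAMP and CREB. A captured hexagon is a small piece of tissue and can hold several neurons together with glia, fibres and vessels.

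The promoters of the 2 genes that chose the members are shown because these letters connect each gene to its pathway. Both are the 250 bases before the RefSeq start (GRCm38.p6), 5′ to 3′ on the gene's strand, Avp at chr2:130582589-130582838 (minus) and Vip at chr10:5638968-5639217 (plus). Capitals mark CACGTG in Avp and TGACGTC in Vip, the latter being the cAMP response element TGACGTCA without its last base.
Avp: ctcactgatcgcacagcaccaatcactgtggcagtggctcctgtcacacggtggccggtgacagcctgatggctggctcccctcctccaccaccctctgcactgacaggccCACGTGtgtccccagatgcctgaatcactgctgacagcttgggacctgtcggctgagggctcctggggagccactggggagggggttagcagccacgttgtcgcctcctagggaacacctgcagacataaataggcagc
Vip: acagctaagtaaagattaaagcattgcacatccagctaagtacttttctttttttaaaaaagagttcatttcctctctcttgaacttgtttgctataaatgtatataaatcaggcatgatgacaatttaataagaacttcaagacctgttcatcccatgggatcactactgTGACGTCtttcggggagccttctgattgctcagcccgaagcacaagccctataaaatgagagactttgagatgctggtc
The CACGTG begins 139 bases before the Avp start, and the TGACGTC begins 79 bases before the Vip start. Searched on both strands in windows of the same length, CACGTG was found in 6.02% of 32851 RefSeq promoters and TGACGTC in 2.78%. TGACGTC lies within TGACGTCA, which was found in 1.55%.

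Avp and Vip chose the members, so their values are descriptions without a test. Avp ran from 213 to 878 CPM (median 521) in the 14 low-side members, and was 484, 272, 406, 410 and 441 CPM in replicates 5 and 10 of section 335, replicates 5 and 6 of section 383 and the lone hexagon of section 431. The high-side values lay within the low-side range. Among hexagons with under 100 CPM of Vip, the nearest under the Avp threshold had 116 CPM on the low side and 79.7 CPM on the high side. High-side hexagons with more Vip lay closer to it, the nearest at 188 CPM of Avp and 1082 CPM of Vip (replicate 3 of section 383). Vip reached 31.2 CPM among low-side members and 64.4 CPM on the high side, in replicate 6 of section 383. The Vip limit acted on 1 side: all 14 low-side hexagons with enough Avp passed it, while 6 of 11 on the high side did not, the lowest of these with 159 CPM of Vip.

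**Figure D1:**
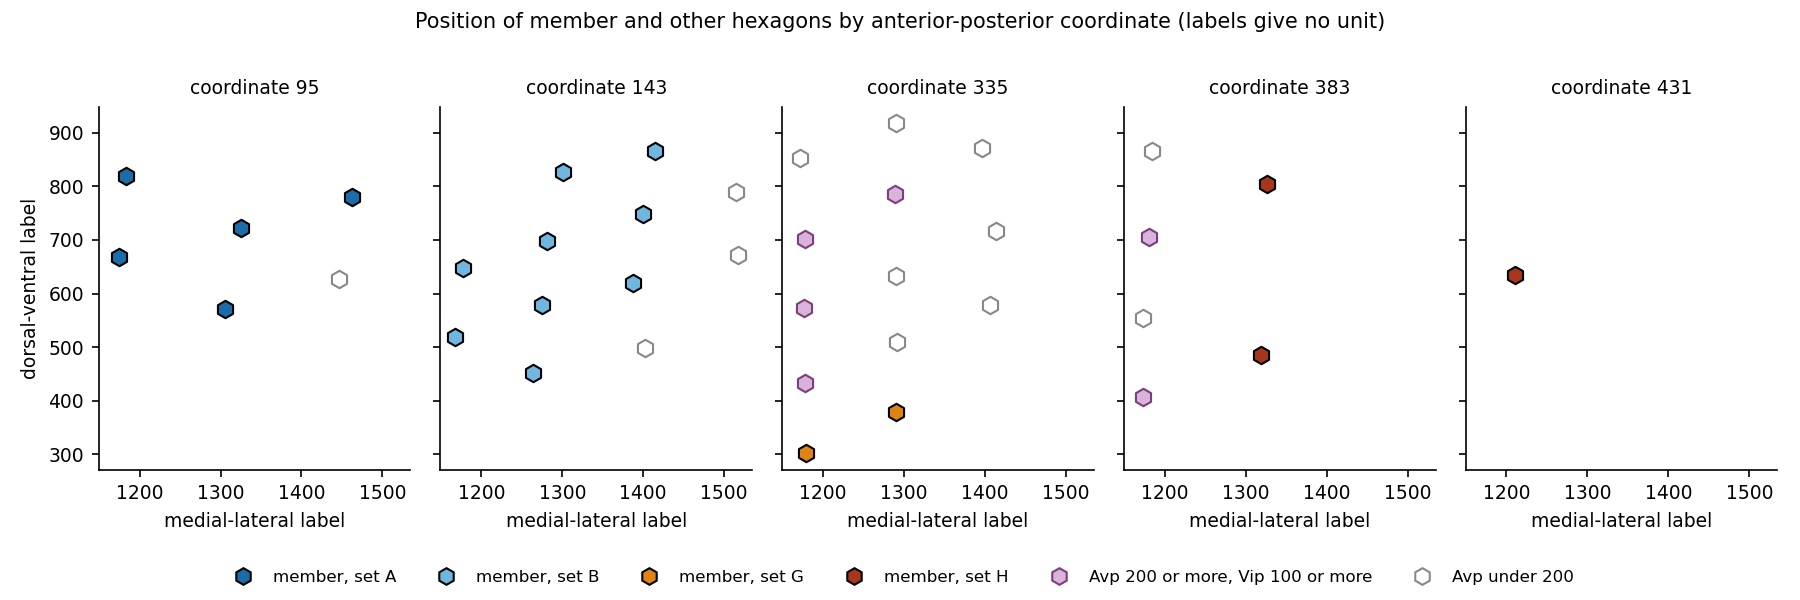
Position of the hexagons in the 5 sections, with the medial-lateral label on the x axis and the dorsal-ventral label on the y axis, neither with a unit. Filled members cover most of sections 95 and 143, while the 5 members of sections 335, 383 and 431 are scattered and 5 of the 6 hexagons with both peptides (purple) lie at medial-lateral labels of 1173 to 1181.

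The map of positions shows that low-side members spanned dorsal-ventral coordinates of 451 to 865 and high-side members 302 to 804. Means were 680 ± 123 (SD, n = 14) and 521 ± 201 (SD, n = 5), which did not pass (exact two-sided permutation test over 11628 arrangements, p = 0.0520, adjusted over 5 measures 0.130). Without replicate 5 of section 383 the adjusted p was 0.0310. Total counts ran from 279084 to 1655926 on the low side and from 497209 to 1233319 on the high side, and genes detected from 10664 to 12673 and from 9462 to 13419. Neither differed between the sides by the same test (adjusted p = 0.566 for both). Markers of the SCN were present: Rorb, a nuclear receptor of SCN neurons, had at least 997 CPM in every member. Oxytocin (Oxt), the peptide of neighbouring magnocellular neurons, had no count in any member, which allows up to 0.2196 CPM on the low side and 0.699 CPM on the high side (3 counts over the summed libraries, counting error only). Of 18 markers of neighbouring hypothalamic neurons, 0 passed the filter on low counts, and Oxt, Slc17a7, Nr5a1 and Fezf1 had no count. The markers summed to 0 to 111 CPM on the low side and 5.14 to 29.2 CPM on the high side. The Y-linked Ddx3y was present in every member of both sides (lowest 32.0 CPM on the low side and 118 CPM on the high side).

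By length-corrected level (median RPKM, the authors' counts per kilobase and per 1000000 counts), Avp was the highest of 20 peptide genes on both sides, as its choice favours, at 903 on the low side and 711.3 on the high side. Nms, which encodes neuromedin S of many SCN neurons, followed on the low side at 116 RPKM. Cck (cholecystokinin) came next there at 62.0 RPKM, before Prok2 (prokineticin 2, an SCN output signal) at 19.3 RPKM. On the high side the gene next to Avp was Penk, the enkephalin precursor, at 242 RPKM. Nms followed at 166, Prok2 at 74.0 and Sst (somatostatin) at 61.4 RPKM. Penk and Nms on the high side cannot be ordered beyond their spread, since they ranged from 78.6 to 680 and from 86.7 to 466.3 RPKM. On the low side Penk ranked 6 with a median of 11.3 RPKM.

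Across all genes the sides were compared with 5 high-side members, so a missed threshold does not show that the sides are alike. Of 10843 genes with 10 or more counts in at least 5 members, 0 (0%) passed an adjusted p of 0.05 in edgeR's quasi-likelihood test with Benjamini-Hochberg adjustment, and the smallest adjusted p was 0.143. At an unadjusted p under 0.05 stood 779 genes, 329 higher on the high side (3.03%) and 450 lower (4.15%). DESeq2, run on the same 10843 genes, called 29, 6 higher and 23 lower. The biological coefficient of variation was 0.751. In direction alone, 4992 of the 10843 genes (46.0%) were higher and 5851 lower, and the median log2 difference, high minus low, was -0.05. All differences below are high minus low on the log2 scale, and none passed the edgeR threshold unless stated.

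Penk (chr4:4133531-4138819, GRCm38) was at 1.72 to 273 CPM in low-side members with a median of 18.5 CPM. In high-side members it was at 524, 396, 128, 247 and 1111 CPM in the order given for Avp. The lone hexagon of section 431 was the highest, and both members of section 383 lay within the low-side range while the other 3 lay above it. The log2 difference was 2.88 ± 0.86 (SE; edgeR adjusted p = 0.467). With counts summed per library set, sets A and B had 78.7 and 60.0 CPM and sets G and H 456 and 603 CPM, and Penk was then the single gene called in edgeR (log2 difference 2.97, adjusted p = 0.0396, with 2 sums a side). With counts summed per section in place of library set, edgeR called 0 of 12571 genes, Penk included (smallest adjusted p = 0.9999). An exon of Penk overlaps A830012C17Rik on the other strand, so reads of the 2 cannot be told apart without a known strand setting.

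Nms (chr1:38939149-38950276) was at 39.4 to 246 CPM (median 116) on the low side and at 86.7, 148, 166, 467 and 218 CPM on the high side, read here in the order 335 (replicates 5 and 10), 383 (replicates 5 and 6) and 431. Its difference of 0.85 ± 0.35 (SE) had an edgeR adjusted p of 0.621, and replicate 6 of section 383 was the hexagon above the low-side range. Prok2 (chr6:99711299-99726392) was at 0 to 151 CPM (median 37.0) against 54.4, 144, 41.1, 257 and 142 CPM. The ranges overlapped, and the difference was 1.51 ± 0.75 (SE, edgeR adjusted p = 0.716). Cck was at 3.29 to 402 CPM (median 80.9) against 2.77, 37.3, 127, 58.3 and 0 CPM, so that the lone hexagon of section 431 held no Cck count. Its difference was -1.59 ± 1.02 (SE, edgeR adjusted p = 0.837), and without set B, which leaves the 5 low-side members of section 95, the Cck log2 difference was 0.0035.

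Of the 20 peptide genes, 11 besides Avp and Vip passed the count filter, 6 with higher and 5 with lower values on the high side. Nms, Penk and Sst were higher and Trh lower at an unadjusted p under 0.05, beside shares over all genes of 3.03% and 4.15%. With each member left out, 1 to 4 genes of this list were higher and 0 to 2 lower at that p, and the list median ran from -0.06 to 0.52. The single higher gene was reached without replicate 6 of section 383, and the negative median without the lone hexagon of section 431. Trh, the precursor of thyrotropin-releasing hormone, was patchy: it reached 1156 CPM in 1 low-side hexagon, had a median of 12.6 CPM there, and had no count in 3 of 5 high-side members. Sst had counts in 3 of 14 low-side and 4 of 5 high-side members, from 0 to 171 CPM on the high side. Grp, the gastrin-releasing peptide of core neurons, had counts in 5 of 14 and 2 of 5 members, reaching 22.4 CPM on the low side and 69.7 CPM in replicate 10 of section 335.

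**Figure D2:**
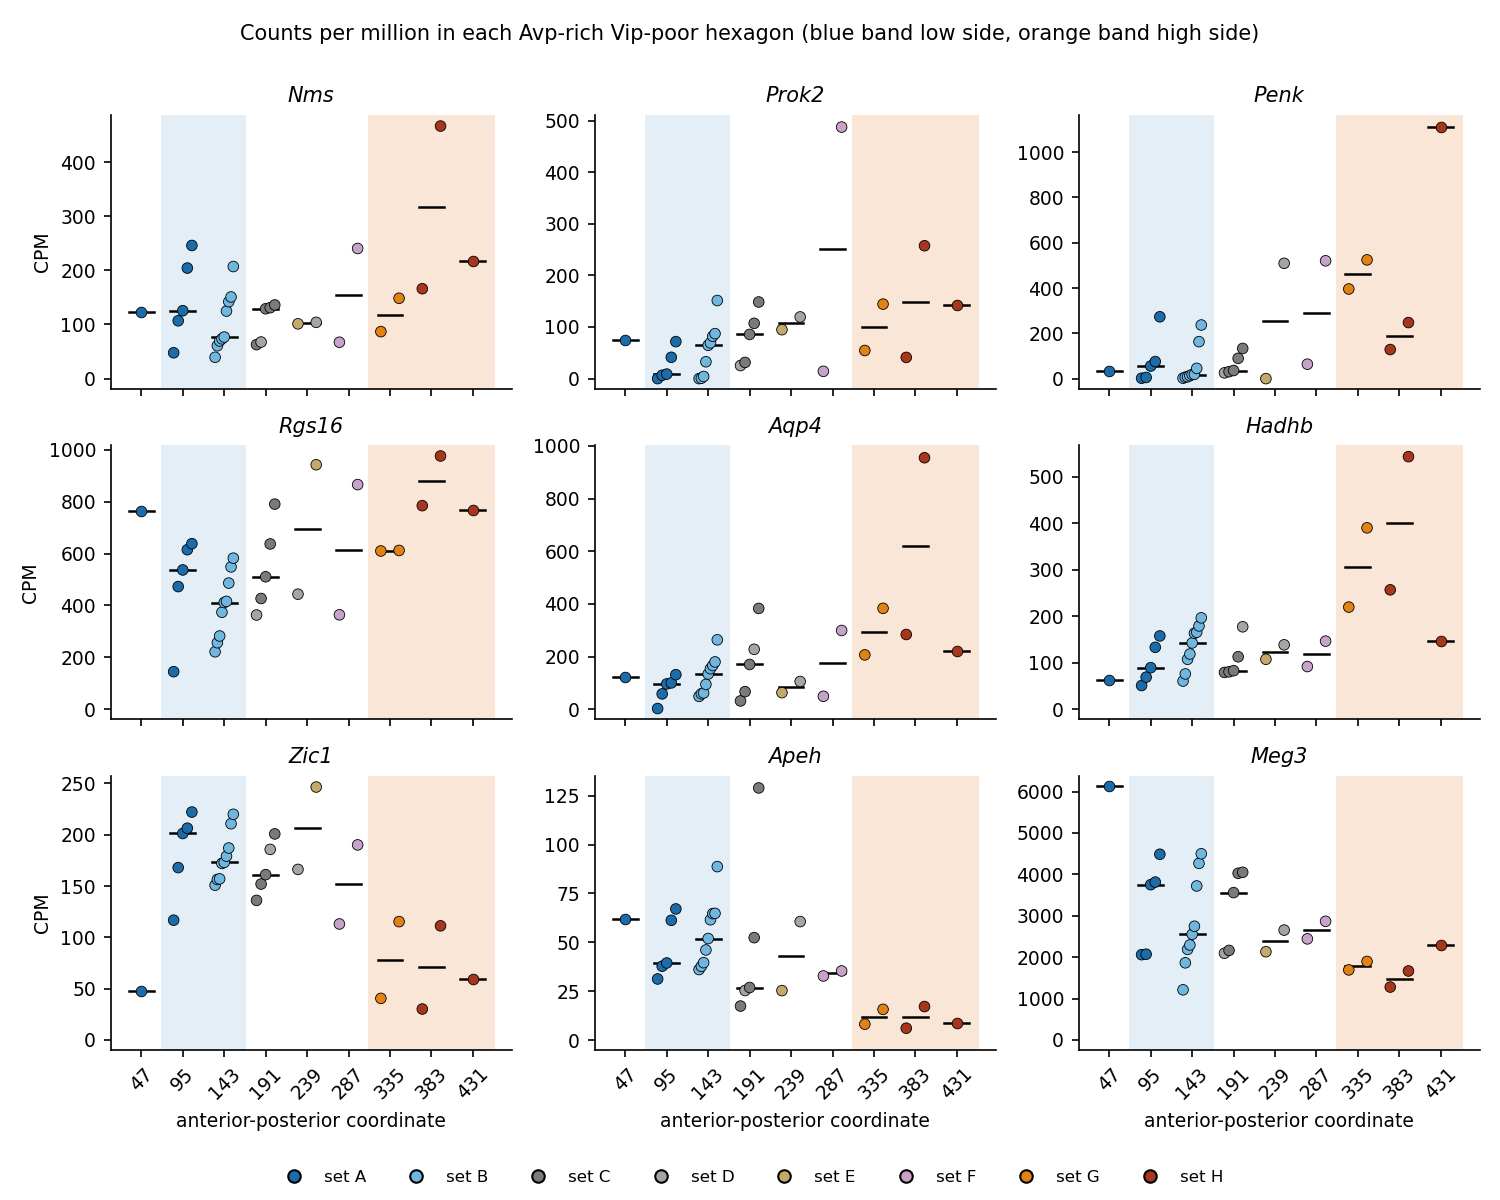
CPM (y axis) of 9 genes in each Avp-rich Vip-poor hexagon by anterior-posterior coordinate (x axis), with a bar at the median of each section and colours for library sets. Zic1 is at 30.2 to 115 CPM in the 5 members of the orange band and at 117 to 222 CPM in the 14 of the blue band, while Penk spreads from 128 to 1111 CPM in the orange band.

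Among receptors and regulators of SCN neurons, 19 of 22 listed genes passed the filter, 12 with higher and 7 with lower values. Rgs16, Avpr1a and Grpr were the 3 at an unadjusted p under 0.05, all higher, beside 3.03% of all genes. Their number was 1 without replicate 6 of section 383 or without the lone hexagon of section 431, and ran from 1 to 4 with each member left out, with 0 or 1 lower. Without set H it was 0. Rgs16, whose exons overlap Gm28513 on the other strand and whose protein limits Gi signalling in SCN shell neurons, was at 145 to 638 CPM (median 444) on the low side. It was at 612, 610, 784, 976 and 769 CPM on the high side, so the 3 members of set H lay above every low-side hexagon and the 2 of set G did not. The difference was 0.81 ± 0.23 (SE, edgeR adjusted p = 0.384). Avpr1a, the vasopressin receptor of the SCN, had a low-side median of 0 CPM (highest 24.98) and was at 0, 0, 35.9, 78.4 and 42.5 CPM on the high side, its counts there being in set H alone. Grpr, the receptor for gastrin-releasing peptide, was at 0 to 56.6 CPM against 35.1, 13.8, 41.1, 131 and 104 CPM. St8sia6, a sialyltransferase, was at 7.54 to 95.4 CPM (median 26.8) and at 28.6, 136, 183, 163 and 103 CPM, with 4 of 5 high-side members above the low-side range (difference 1.55 ± 0.43 SE, edgeR adjusted p = 0.384).

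Rorb and Zfhx3, transcriptional regulators of SCN identity, had close values on both sides. Rorb was at 997 to 2587 CPM (median 1590) and at 1463, 1089, 1280, 1561 and 2072 CPM, with a difference of -0.16 and a 95% interval of -0.52 to 0.21. Zfhx3 was at 72.1 to 339 CPM (median 148) and at 195, 182, 111, 159 and 139 CPM, with an interval of -0.63 to 0.44. Zic1, a zinc-finger transcription factor of the developing brain, did not overlap between the sides. It was at 117 to 222 CPM (median 176) on the low side and at 115, 40.5, 111, 30.2 and 59.2 CPM on the high side. The highest high-side value lay just under the lowest low-side value. The difference was -1.32 with a 95% interval of -1.88 to -0.77 (edgeR adjusted p = 0.143). Zic1 (chr9:91358058-91365810) shares exon sequence with Zic4 on the other strand. Its relative Zic2 (chr14:122475435-122479852), named after its values were seen, was at 18.96 to 72.5 CPM against 18.5, 10.5, 27.4, 4.02 and 10.1 CPM. DESeq2 called both, with adjusted p = 0.00151 for Zic1.

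Of the 10843 genes, 4 (0.0369%) had every high-side member above every low-side member and 4 (0.0369%) every one below. These were Tmub2, Eif2s1, Pls1 and Lhx1os above, and Zic1, Apeh, Ahdc1 and Mrnip below, listed after their values were seen except for Tmub2, Zic1 and Apeh.

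No gene passed the naming rule, so the 5 smallest p-values in each direction are given, none of them called by edgeR. On the lower side were Zic1, Apeh, Eef1a2, Fnbp1l and Acly. Apeh, a peptidase that removes acylated amino acids from peptides (chr9:108085413-108094606), was at 31.2 to 88.7 CPM (median 49.0) against 15.7, 8.11, 17.1, 6.03 and 8.94 CPM. Every high-side value lay below the lowest low-side value, and the difference was -2.20 ± 0.46 (SE, edgeR adjusted p = 0.143). Eef1a2, the neuronal translation elongation factor (chr2:181147653-181157014), was at 184 to 371 CPM against 211, 111, 132, 109 and 137 CPM, with replicate 5 of section 335 inside the low-side range. Fnbp1l, which links membrane curvature to actin, was at 76.7 to 240 CPM and 69.2, 94.1, 25.7, 82.5 and 53.6 CPM. Acly, which makes acetyl-CoA from citrate, was at 121 to 311 CPM and 138, 98.9, 111, 22.1 and 58.1 CPM.

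On the higher side were Hadhb, mt-Cytb, Tmub2, S100a1 and Aqp4. Hadhb, a subunit of the enzyme of mitochondrial fatty acid oxidation (chr5:30155248-30184593), was at 51.0 to 197 CPM (median 126). On the high side it was at 220, 390, 257, 543 and 146 CPM, with the lone hexagon of section 431 inside the low-side range (difference 1.34 ± 0.28 SE, edgeR adjusted p = 0.143). Tmub2, a transmembrane ubiquitin-like protein (chr11:102284931-102289237), was at 27.2 to 87.0 CPM and at 169, 204, 127, 125 and 114 CPM, with no overlap. S100a1, a calcium-binding protein, was at 20.4 to 72.2 CPM and at 53.5, 92.4, 123, 296 and 131 CPM. Replicate 6 of section 383 held the highest values of Hadhb, S100a1, Aqp4 and mt-Cytb, and also the fewest counts (497209) and genes detected (9462) of the high side. Without it the Hadhb log2 difference was 1.07 in place of 1.34 and the S100a1 log2 difference 1.01 in place of 1.46. The Aqp4 log2 difference was then 1.32 in place of 1.87 and the mt-Cytb log2 difference 0.41 in place of 0.54, with edgeR adjusted p from 0.601 to 0.806 over these 4 genes.

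**Figure D3:**
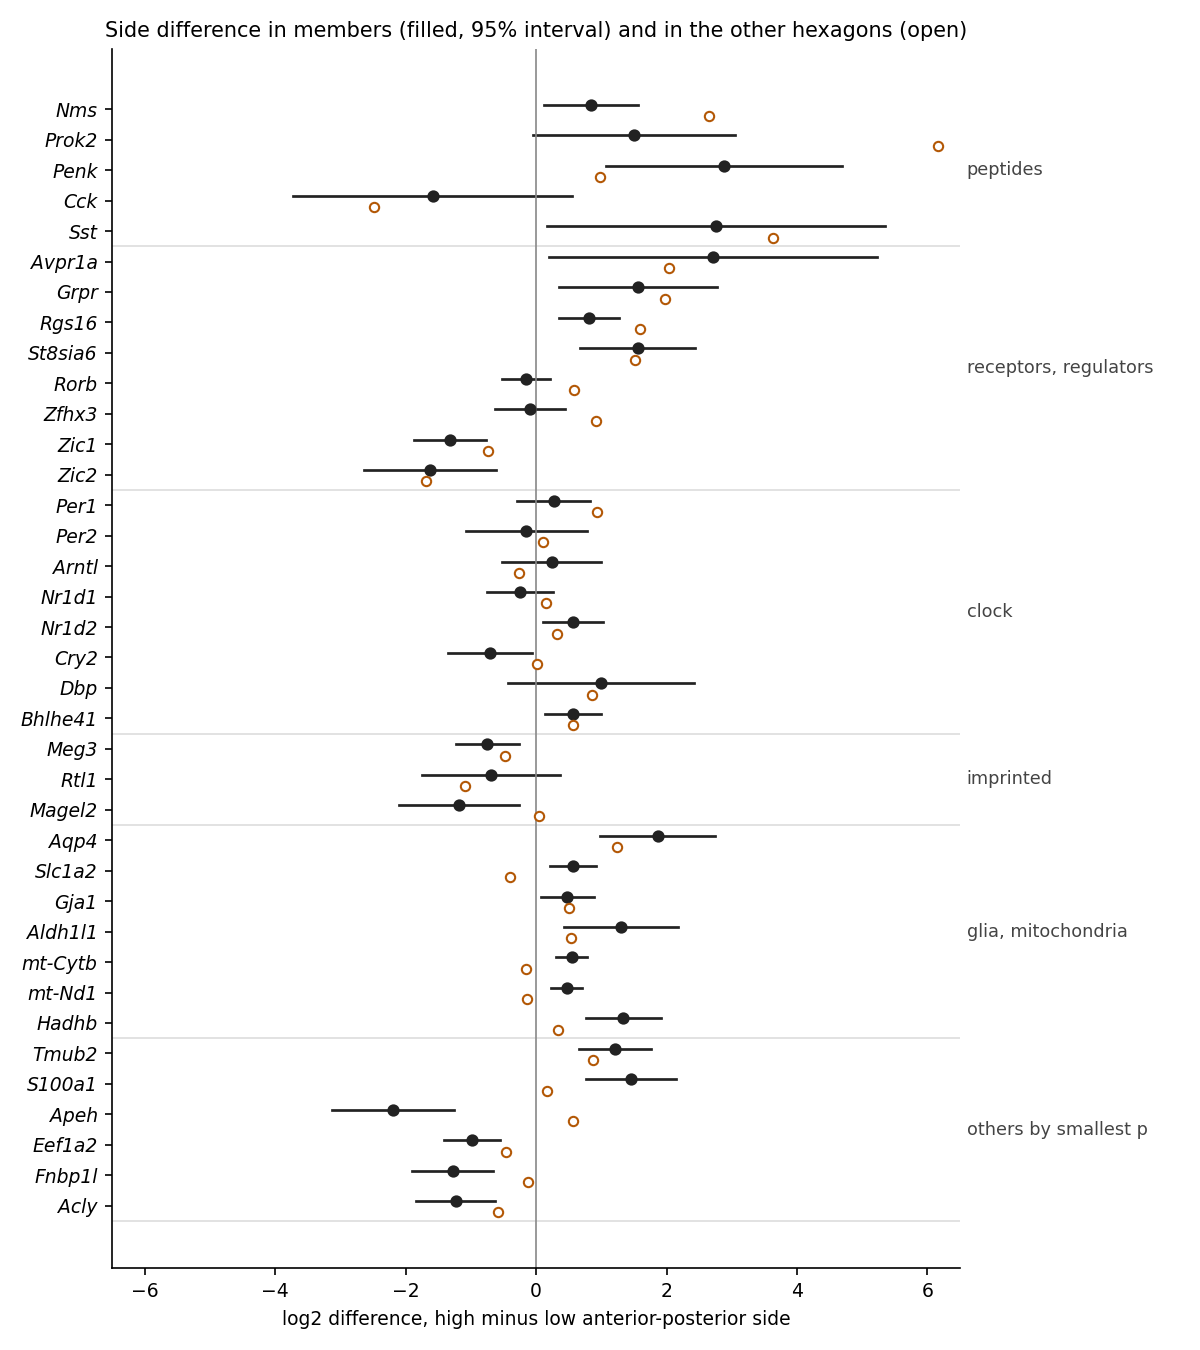
Log2 difference, high minus low side (x axis), for named genes in rows. Filled points with 95% intervals are the 19 members and open points the 19 other hexagons of the same sections (4 low, 15 high). Intervals are unadjusted. Those of Penk, Rgs16, Zic1, Apeh and Aqp4 in members do not include 0, and Zic1, Apeh and Aqp4 were named for their small p-values. Among clock genes, the intervals of Per1, Per2, Arntl, Nr1d1 and Dbp include 0. Those of Nr1d2, Cry2 and Bhlhe41, named for an unadjusted p under 0.05, do not. No gene passed after adjustment.

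Of 23 tested clock genes, 15 (65.2%) had higher and 8 lower values, beside 46.0% higher among all genes. The list median was 0.20, beside -0.05 for all genes. With each member left out, 14 to 17 were higher and the median ran from 0.13 to 0.30. At an unadjusted p under 0.05 stood 2 in each direction, beside 3.03% of all genes higher and 4.15% lower. These were Nr1d2 and Bhlhe41, both repressors, higher and Cry2 (a repressor of CLOCK and BMAL1) and Csnk1d (a kinase of PER proteins) lower. Without the lone hexagon of section 431 the counts were 0 higher and 1 lower, and without replicate 6 of section 143, replicate 5 of section 335 or replicate 5 or 6 of section 383 there was 1 lower. Per1 was at 42.6 to 199 CPM on the low side and at 176, 186, 89.0, 101 and 177 CPM on the high side (difference 0.27, 95% interval -0.29 to 0.83). Per2 had an interval of -1.07 to 0.77 and ran from 14.1 CPM in replicate 6 of section 383 to 184 CPM in section 431. Arntl, which encodes BMAL1, was at 16.0 to 162 CPM and at 68.3, 85.9, 185, 86.5 and 78.2 CPM, with an interval of -0.52 to 1.00. Nr1d1, the repressor of Arntl, was at 160 to 408 CPM and at 308, 281, 267, 103 and 312 CPM, with an interval of -0.76 to 0.25. Exons of Nr1d1, Arntl and Dbp overlap Thra, Gm45355 and Sphk2 on the other strand. Dbp, a clock output factor, was low on both sides, with medians of 12.9 and 23.5 CPM. No label gives the time of day of either side, so time and side cannot be told apart for these genes. Among immediate early genes, 7 of 14 tested had higher values and 7 lower, with 0 at an unadjusted p under 0.05 in edgeR and 0 called.

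Genes of neuronal excitability and peptide processing tended to lower values. Beside them, 5851 of all 10843 genes were lower, 4.15% at an unadjusted p under 0.05. Of 35 tested channel genes, 26 were lower and 5 at that p, all of them lower (3 to 6 with each member left out): Cacna1a, Cacna1c, Cacna1d, Cacna1e and Cacna1g, the pore subunits of voltage-gated calcium channels. Cacna1e was at 248.8 to 829.1 CPM (median 477) and at 336, 261, 411, 296 and 320 CPM (difference -0.66 ± 0.20 SE, edgeR adjusted p = 0.420), within the low-side range throughout. The list median was -0.20, beside -0.05 for all genes. Of 18 glutamate receptor genes, 13 were lower, with Gria1, Grin2b and Grin2c at an unadjusted p under 0.05. Grin2c, an NMDA receptor subunit also made by astrocytes, was at 4.93 to 217 CPM (median 66.3) and at 6.46, 5.68, 6.85, 0 and 41.3 CPM. Without set H, 11 of 18 glutamate receptor genes were higher and the list median was 0.04. Of 16 granin and prohormone-processing genes, 13 were lower, with Pam, Ptprn, Cadps2 and Pcsk1n at an unadjusted p under 0.05. Pam, which amidates vasopressin and other peptides, was at 131 to 458 CPM and at 143, 144, 83.9, 360 and 268 CPM, and without replicate 6 or replicate 5 of section 383 the granin list had 1 such gene in place of 4, and without the lone hexagon of section 431 it had 2.

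Differences moved with gene length. With genes divided by length into 5 equal bins, the median difference was 0.07, 0.01, -0.05, -0.10 and -0.17 from the shortest bin to the longest (8146 bases or more). In the longest bin 164 genes were lower and 37 higher at an unadjusted p under 0.05. Of the 35 channel genes 23, and of the 18 glutamate receptor genes 9, lay in that bin. Of the granin list 5 of 16 did. The part of gene length in these lists was not tested. Over all genes, 3.03% were higher and 4.15% lower at an unadjusted p under 0.05, which the next 3 lists stand beside. GABA signalling genes were divided, 12 higher and 10 lower, with Gabrg3, Gabre and Gabbr1 lower at an unadjusted p under 0.05 (1 to 3 genes with each member left out). Genes of synaptic vesicle release were divided 12 to 14, with Sv2a and Rab3c higher at that p (1 to 3 higher and 0 to 2 lower with each member left out). G protein and cAMP genes were divided 16 to 16, with Rgs16 higher and Adcy9 and Pde7b lower at that p (1 higher and 1 to 4 lower with each member left out).

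Imprinted genes, of which 29 passed the filter, were higher in 12 and lower in 17. Meg3 and Magel2 were lower at an unadjusted p under 0.05, beside 4.15% of all genes. There were 4 such genes without replicate 5 of section 335 or without the lone hexagon of section 431. Meg3, a maternally expressed long noncoding RNA (chr12:109541001-109571726), was at 1210 to 4496 CPM (median 2649) and at 1896, 1691, 1277, 1665 and 2281 CPM, at the lower end of the low-side range. Its difference was -0.75 ± 0.23 (SE, edgeR adjusted p = 0.456), and its exons overlap Gm27300, Mir1906-1 and Mir770. Rtl1, from the paternal copy of the same locus, was at 11.3 to 146 CPM and at 52.6, 21.9, 1.71, 54.3 and 83.8 CPM. Magel2 was at 59.8 to 332 CPM and at 50.8, 112, 30.8, 8.04 and 146 CPM.

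**Figure D4:**
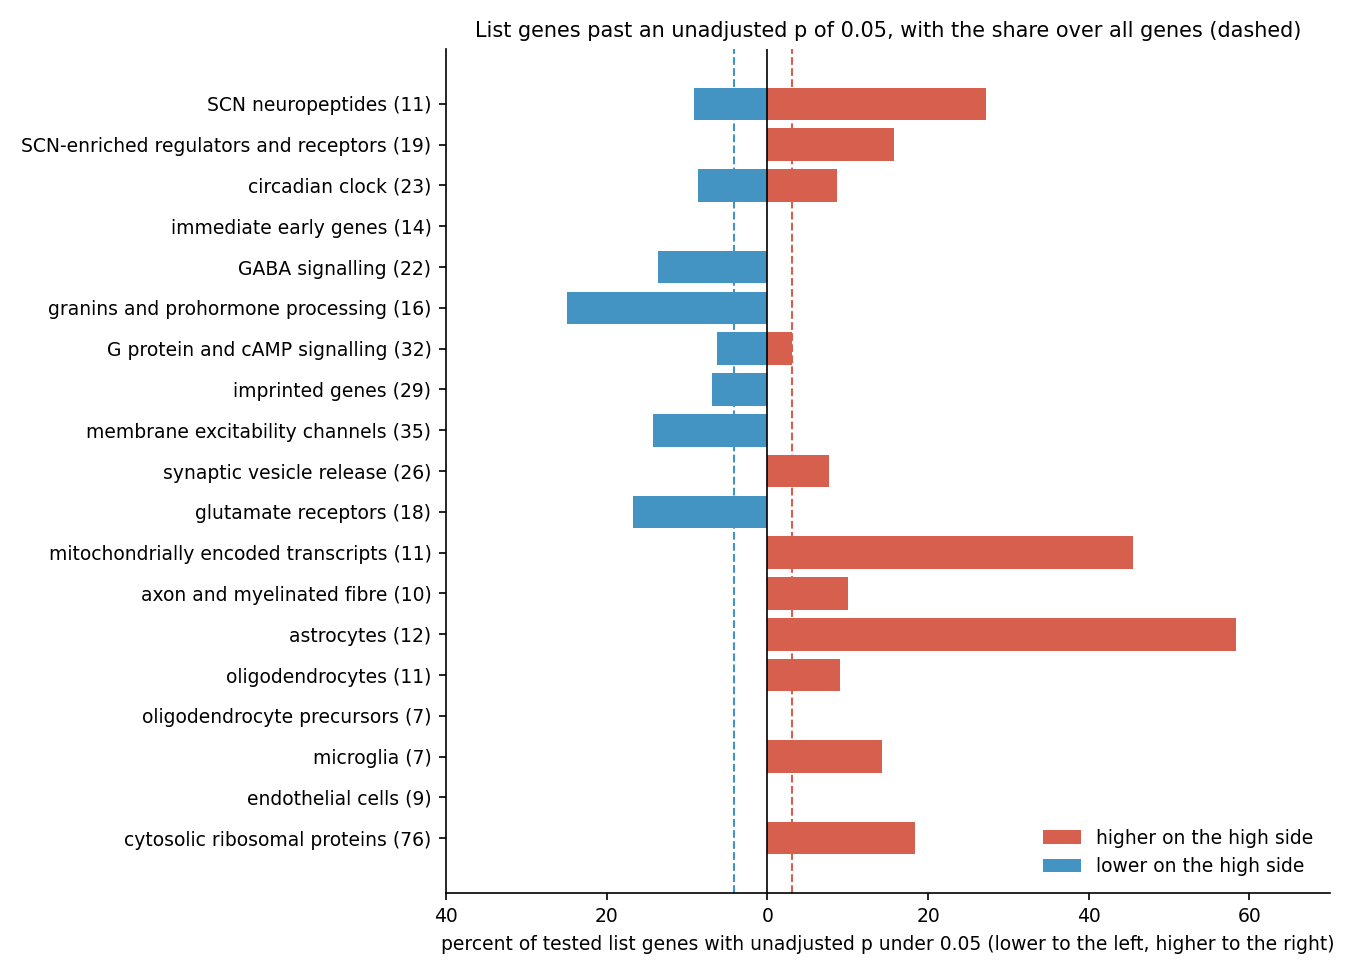
Percent of tested genes of each list with an unadjusted p under 0.05 (x axis), higher on the high side to the right and lower to the left, with the number tested in parentheses and dashed lines at 3.03% and 4.15% for all genes. Astrocyte (7 of 12), mitochondrial (5 of 11) and ribosomal protein genes (14 of 76) extend to the right, and granin (4 of 16), glutamate receptor (3 of 18) and channel genes (5 of 35) to the left.

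Astrocyte genes had higher values on the high side in 10 of 12, and 7 of the 12 were at an unadjusted p under 0.05, beside 3.03% of all genes: Aqp4, Aldoc, Slc1a2, Gja1, Agt, Aldh1l1 and Gjb6. Gfap and Sox9 had lower values. In the Avp-rich Vip-poor hexagons of sections 191, 239 and 287, 3 of the 12 rose with the anterior-posterior coordinate. Aqp4, the water channel of astrocyte endfeet, was at 2.92 to 264 CPM (median 98.3) and at 207, 384, 284, 955 and 222 CPM (difference 1.87 ± 0.43 SE, edgeR adjusted p = 0.258). Slc1a2, the astrocyte glutamate transporter, was at 570 to 1326 CPM (median 921) and at 1166, 1461, 1344, 1454 and 1081 CPM (difference 0.57 ± 0.18 SE, edgeR adjusted p = 0.438). The summed level of the 12 genes was 4495 ± 1226 CPM (SD, n = 14; range 2728 to 6258) and 6436 ± 1509 CPM (SD, n = 5; range 5135 to 8616), which did not pass (exact two-sided permutation test, p = 0.0107, adjusted over 11 cell type lists 0.117). The list's count at an unadjusted p under 0.05 ran from 4 to 8 when each member was left out, with 4 without replicate 6 of section 383 and 4 without replicate 10 of section 335. In these bulk pieces, more or fewer cells of a type and more or less RNA per cell cannot be told apart. The part of this glial level in the lower neuronal lists was not tested.

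Oligodendrocyte genes were higher in 11 of 11 tested, though with 1 (Mag) at an unadjusted p under 0.05, beside 3.03% of all genes. Their summed level was 487 to 22497 CPM (median 696) on the low side and 1838 to 7906 CPM (median 3770) on the high side, the highest being in a low-side hexagon, replicate 10 of section 143. The 5 high-side members lay above 12 of the 14 low-side members, and replicates 10 and 5 of section 143 were higher than every high-side member, at 22497 and 8355 CPM. The list median of 0.77 was -0.06 without set G, with 4 of 9 genes higher, and 2.41 without set B, with 8 of 8 higher and all 8 at an unadjusted p under 0.05. Without replicate 10 of section 143 alone, 10 of 10 were higher, 6 at that p, and without replicate 5 of section 335 it was 7 of 10 with 0 at that p. Microglial genes were higher in 7 of 7, with Ctss, a lysosomal protease, at an unadjusted p under 0.05, and summed to 9.03 to 681 CPM and 34.9 to 718 CPM. Without the lone hexagon of section 431, 4 of 6 tested were higher and 0 at that p, and the list median of 1.12 ran from 0.61 to 1.33 with each member left out. The sums of endothelial, mural, ependymal, meningeal and oligodendrocyte precursor markers overlapped between the sides, and none of the 11 sums passed (adjusted p = 0.117 to 0.933). Meningeal fibroblast markers summed to 2843 CPM in replicate 5 of section 335 and to 2270 CPM in a low-side hexagon. Erythrocyte markers had a median of 28.3 CPM on the low side and 3.35 CPM on the high side.

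Transcripts of the mitochondrial genome were higher in 11 of 11 tested. At an unadjusted p under 0.05 were mt-Nd1, mt-Nd2, mt-Nd4, mt-Co1 and mt-Cytb, beside 3.03% of all genes. mt-Cytb, a subunit of respiratory complex III, was at 2003 to 3037 CPM (median 2265) and at 2940, 3362, 3403, 4899 and 2984 CPM, with 3 of 5 above the low-side range (difference 0.54 ± 0.12 SE, edgeR adjusted p = 0.143). As a share of all counts, mitochondrial transcripts made up 1.43% ± 0.20 (SD, n = 14) and 1.84% ± 0.40 (SD, n = 5), which passed (exact two-sided permutation test over hexagons, p = 0.00679, adjusted over 5 measures 0.0340). The adjusted p was 0.217 without replicate 6 of section 383, with a difference of 0.255 in place of 0.415 percentage points, and 0.0997 without replicate 10 of section 335. These transcripts have near-identical nuclear copies, and how reads on them were assigned is not given in the sources used here.

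Cytosolic ribosomal protein genes were higher in 55 of 76, with 14 at an unadjusted p under 0.05, all higher, beside 3.03% of all genes. The list median was 0.15. Rps4x was at 422 to 683 CPM (median 541) and at 668, 575, 919, 953 and 817 CPM, the 3 members of set H lying above every low-side hexagon. Without set H, 1 of 76 was at an unadjusted p under 0.05. These genes are short (median 1755 bases) and have many pseudogenes, so the length trend runs beside this list too. Gm42418, a transcript over ribosomal RNA repeat sequence named after its values were seen, took 48518 ± 3348 CPM (SD, n = 14) and 39267 ± 6213 CPM (SD, n = 5), or a log2 difference of -0.31 (edgeR adjusted p = 0.310).

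**Figure D5:**
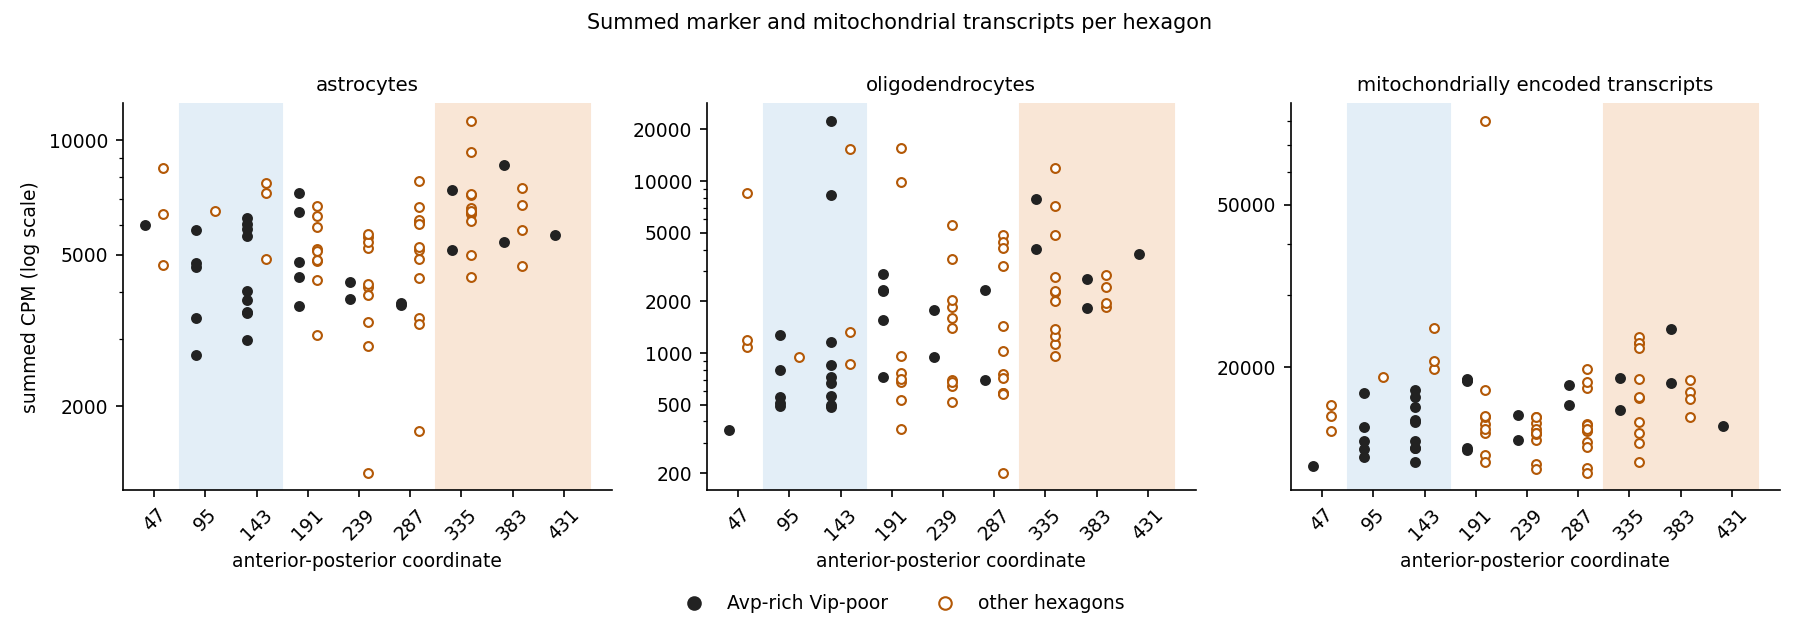
Summed CPM (y axis, log scale) of astrocyte, oligodendrocyte and mitochondrial genes in each of the 82 hexagons by anterior-posterior coordinate (x axis), Avp-rich Vip-poor hexagons filled and the others open, with the low side on blue and the high side on orange. Filled points for astrocytes run from 2728 to 6258 on blue and from 5135 to 8616 on orange.

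The 19 other hexagons of the same sections, 4 on the low side and 15 on the high side, were compared in the same way. Their sides differ in more than the coordinate. The 4 low-side ones lie at high medial-lateral coordinates and had no Vip count, while Vip ran from 3.79 to 5884 CPM (median 409) in the 15 high-side ones. Side and Vip level cannot be told apart among them. In the 19 other hexagons edgeR called 0 of 11147 genes (0%), with 643 at an unadjusted p under 0.05. A side-by-member interaction over the 38 hexagons called 0 of 12252 genes (0%), with 724 (5.91%) at an unadjusted p under 0.05. Mitochondrial genes were higher in 11 of 11 in members and in 0 of 11 in the other hexagons (median 0.33 and -0.26), and 6 of the 11 had an unadjusted interaction p under 0.05, none after adjustment. Astrocyte genes were higher in 10 of 12 in members and in 8 of 12 in the others (medians 0.48 and 0.44). Slc1a2 had 0.57 in members and -0.40 in the others, and Gja1 had 0.48 and 0.50. Granin and processing genes were lower in 13 of 16 in members and higher in 13 of 16 in the others. Oligodendrocyte genes were higher in 11 of 11 in members and in 1 of 11 in the others. Clock, microglial, channel and glutamate receptor genes kept the direction of their medians. In the others, 16 of 22 clock and 7 of 7 microglial genes were higher (medians 0.18 and 1.86). Channel genes were higher there in 13 of 34 and glutamate receptor genes in 7 of 18 (medians -0.26 and -0.36). Ribosomal protein genes were divided there, 37 of 76 higher, beside 5436 of all 10484 genes. Apeh had -2.20 in members and 0.57 in the others, whose low-side values ran from 12.1 to 56.0 CPM. Zic1 and Zic2 were lower in both, at -1.32 and -1.63 in members and -0.73 and -1.69 in the others. Aqp4 was higher in both, at 1.87 and 1.24, as was St8sia6, at 1.55 and 1.52. Prok2 had 1.51 in members and 6.16 in the others, whose low-side median was 2.45 CPM and high-side median 256 CPM. Penk had 2.88 in members and 0.98 in the others, where its medians were 142 CPM on the low side and 188 CPM on the high side.

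Between the sides, in the sections at 191, 239 and 287, lay 9 further Avp-rich Vip-poor hexagons of sets C, D, E and F. These were not used in the contrast, and their totals were lower, from 118442 to 782885 counts. The slope on the anterior-posterior coordinate called 0 of 5847 genes (0%) in edgeR, with 272 at an unadjusted p under 0.05. Among 572 genes at an unadjusted p under 0.05 between the sides, 343 (60.0%) had a slope of the same sign, beside 3263 of all 5847 (55.8%). Penk ran from 0 to 520 CPM (median 63.6) with a log2 slope of 2.49 ± 1.36 (SE) per 100 units. It was the single gene called when dorsal-ventral and medial-lateral terms were added to the fit of 9 hexagons (edgeR adjusted p = 0.0360). The hexagon without a Penk count, replicate 12 of section 239, was of low depth (158181 counts). Without low-depth libraries, and without those terms, edgeR called 0 of 5588 genes (smallest adjusted p = 0.968). Zic1 was at 113 to 247 CPM (median 166) there, which overlaps the low side and, at its lowest, the high side, with a slope of -0.07 ± 0.39 (SE). Apeh was at 17.4 to 129 CPM (median 32.8), the lowest lying just above the highest high-side member (17.1 CPM). Aqp4 was at 31.8 to 383 CPM (median 106), with a slope of -0.21 ± 0.71 (SE). Of the 12 astrocyte genes 3 had a rising slope, beside 2791 of all 5847. Aldoc, Slc1a2 and Gja1, higher on the high side, had slopes of -0.89 ± 0.24, -0.65 ± 0.24 and -1.28 ± 0.48 (SE). Of 10 mitochondrial genes tested there, 6 had a rising slope. The single member of section 47, outside the contrast, had 47.4 CPM of Zic1, 62.2 CPM of Apeh and 6131 CPM of Meg3.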

How the data were processed

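The authors deposited whole-number counts per gene for 27515 genes and RPKM values for 27055 of them. The deposited RPKM equals counts over gene length and library total, so it served only to order levels between genes. Per the submitters' processing notes, bcl2fastq 2, STAR and GRCm38 were used, and the notes do not say for what. How reads were counted, with which annotation and strand, is not given in the sources used here. Per the labels' protocols, hexagons of at most 40 µm radius were laser-captured, and libraries made with Smart-seq2 and Tn5 tagmentation. The RPKM table names 27055 of the gene IDs, and another 455 are named by a gene reference. Positions are from GENCODE M21 (GRCm38). Of 84 genes named by rule or list, 33 have an exon overlapping another gene, 25 of them on the other strand. Libraries held 11905 to 2843366 counts, none identical among members (highest correlation 0.814).

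Counts as deposited were fitted with edgeR 4.0.16 in R 4.3.3 (TMM scaling, robust quasi-likelihood, genes with 10 or more counts in at least 5 hexagons, Benjamini-Hochberg over all genes, threshold 0.05), and DESeq2 1.42.0 was an alternative. SE is the difference over the root of F. Sums and technical measures were compared by exact permutation over hexagons. The scripts were tested on simulated data. Replicates are hexagons that no label assigns to separate animals, so p-values measure the spread between hexagons, which may be technical. The rule for named genes took called genes with a mean CPM of 20 or more and library sets apart (the 10 largest differences a direction and up to 4 a list), the 5 smallest p-values in a direction with under 3 such genes, and always Nms, Prok2, Cck, Penk, Grp, Avpr1a, Rgs16, Per1, Per2, Dbp, Arntl, Nr1d1, Meg3, Rtl1, St8sia6, Rorb, Zfhx3 and Oxt. List genes at an unadjusted p under 0.05, Zic2 and Gm42418 were named after their values were seen, since no gene was called. Alternatives were other scalings, count filters, coordinate terms, sums per library set or section, other Avp and Vip thresholds, and leaving out each set or member. The list counts under these settings, and leaving members out of sums and technical measures, were added after seeing the data. The members, the 24 gene lists and the rule were chosen with earlier results of these data known.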

Additional observations from a re-analysis of the deposited data

Results flagged for a closer look

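Among the 5 high-side members, 8 of 38 genes and sums tested had a hexagon that stood far from the other four by Dixon's test at 95%, where chance flags about 1 in 20 groups. Replicate 6 of section 383 held 4899 CPM of mt-Cytb and 955 CPM of Aqp4, each the highest of the 5, and 103 CPM of Nr1d1, the lowest. Replicate 5 of section 335 held 211 CPM of Eef1a2, and its meningeal fibroblast markers summed to 2843 CPM and its erythrocyte markers to 66.4 CPM. Replicate 10 of section 335 held 69.7 CPM of Grp, and replicate 5 of section 383 held 185 CPM of Arntl. Their causes were not tested.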

How the results depend on the processing

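The count of genes called between the sides was 0 in edgeR. It was 29 with DESeq2, 1 (Penk) with counts summed per library set, 1 (Gm26917) without set A, 4 (Gapdh, Mbp, Mobp and Pllp) without set B, and from 0 to 3 when each member was left out, the 3 being Eef1a2, Kmt2d and Zic1 without replicate 5 of section 335. It was 0 with other scalings and filters, with coordinate terms, with all 82 hexagons in 1 fit (median of all genes -0.23 in place of -0.05), summed per section, at other Avp and Vip thresholds (10 against 4 members at Avp 300) and without set G or H. The cause of these changes was not tested. The slope in the middle sections called 1 gene (Penk) with coordinate terms and 0 without low-depth libraries. For 80 named genes under these settings, 2748 of 2777 values kept direction and side of the threshold, 13 became called and 16 changed sign.

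The values that changed sign follow. Arntl was -0.051 without set A, -0.11 without set H and -0.092 to 0.36 with each member left out. Without set B, Cck was 0.0035, in place of -1.59, and Per1 -0.081. Per2 was 0.029 with coordinate terms, 0.13 at Vip under 50, 0.26 without set A, 0.27 without set H and -0.41 to 0.13 with each member left out. Rorb was 0.059 with coordinate terms and 0.0092 without set A. Zfhx3 was 0.19 without set H and -0.18 to 0.029 with each member left out. Leaving out each member, added after seeing the data, moved summed differences of endothelial markers between -42 and 61.8 CPM, meningeal markers between -64.8 and 593 CPM, oligodendrocyte precursor markers between -0.685 and 64 CPM and mural markers between -24.1 and 92.3 CPM. The difference in genes detected ranged from -800.2 to 189.

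No paired analysis was possible because replicate numbers follow accession order and pair nothing. Between the sides no member library was of low depth and set F held no member, so leaving those out gave no separate value. With 5 hexagons on the high side and a biological coefficient of variation of 0.751, a gene that missed the threshold is not shown to be alike on both sides.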
